A study of Mus musculus with 5 samples.

Results

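The 7 genes described here carry out antigen presentation by major histocompatibility complex (MHC) class II in mouse heart. They were chosen by symbol, as Cd74, H2-Aa, H2-Ab1, H2-Eb1, H2-DMa, H2-DMb1 and Ciita, from the 17818 gene symbols of an RNA sequencing table, and all 7 passed the filter on low levels. All hearts were from male mice with transplanted bone marrow, collected 12 months after the transplant and after 2 months of treatment. There were 2 libraries labelled Tet2+/- and given Oridonin (Tet2 oridonin), 2 labelled Tet2+/- and given vector (Tet2 vector) and 1 labelled WT and given vector. Oridonin is a diterpenoid from a medicinal herb, which the series title presents as an inhibitor of the histone demethylase KDM5C. Tet2 is a dioxygenase that acts on methylated cytosine in DNA, and its loss in blood cells is a model of clonal hematopoiesis. The labels state neither strain nor dose, neither the number of animals per library nor whether the genotype is that of the marrow or of the whole animal. The sample titles carry a month number, 1 or 2, where the time label is 2 months for every sample, and it was used only to name replicates.

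MHC class II molecules are pairs of an alpha and a beta chain that carry peptides from the endosome to the cell surface for CD4+ T cells. The invariant chain, encoded by Cd74, fills the groove of a new pair and steers it to the endosome, where the H2-DM pair exchanges the remnant of that chain for a peptide. Ciita encodes the coactivator that class II promoters need, and it is induced by interferon-gamma. Dendritic cells, B cells and macrophages are the main class II cells, and the heart holds resident macrophages, dendritic cells and class II-bearing vessel cells.

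The classical chain genes lie together on chromosome 17 of GRCm38 (mm10): H2-Ab1 at 34257689 to 34269419 on the plus strand, H2-Aa at 34282744 to 34287823 on the minus strand and H2-Eb1 at 34305867 to 34316674 on the plus strand. H2-DMa at 34119541 to 34139101 and H2-DMb1 at 34153072 to 34160230 lie in the same region, both on the plus strand. These are protein-coding genes of GENCODE M21, and Cd74 and Ciita lie on other chromosomes. Class II promoters are known for an X box, bound by the RFX complex and CREB, and a Y box, bound by NF-Y, both of which Ciita depends on. RefSeq windows on GRCm38.p6 were at hand for 4 of the 7 genes, and the 250 bases before the start are shown for 2 chain genes whose RNA followed the same order over the libraries. Capitals mark the X box pattern (CT, AAC and TGATG in this order, with any 3 bases between neighbours), the octamer TGACGTCA known as a CREB site in the X2 part of the X box, and the Y box core GATTGG. All were searched on both strands, where the Y box core reads CCAATC on the other.
H2-Aa, chr17:34287824-34288073, minus strand: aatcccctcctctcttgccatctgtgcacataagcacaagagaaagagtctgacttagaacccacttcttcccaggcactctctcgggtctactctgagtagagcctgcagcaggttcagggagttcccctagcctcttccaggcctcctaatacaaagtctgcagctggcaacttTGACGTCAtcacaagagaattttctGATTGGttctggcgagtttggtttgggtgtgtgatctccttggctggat
H2-Eb1, chr17:34305617-34305866, plus strand: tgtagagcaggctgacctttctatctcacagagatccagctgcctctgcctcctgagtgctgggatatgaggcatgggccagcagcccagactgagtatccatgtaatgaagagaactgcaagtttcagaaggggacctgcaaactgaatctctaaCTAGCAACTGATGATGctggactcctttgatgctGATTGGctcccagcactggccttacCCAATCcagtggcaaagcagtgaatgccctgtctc

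In H2-Eb1 the X box begins 94 bases and the Y box 60 bases before the RefSeq start, with 18 bases between them. In H2-Aa the octamer begins 74 and the Y box 49 bases before the start, 17 bases apart. The same arrangement stood in H2-DMb1, whose RNA did not follow that of the classical chains, and in the genes of H2-DO (H2-Ob) and of a second DM beta chain (H2-DMb2), shown for comparison.
H2-DMb1, chr17:34153082-34153140, plus strand: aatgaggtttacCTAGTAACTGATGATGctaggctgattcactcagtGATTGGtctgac
H2-Ob, chr17:34238803-34238858, plus strand: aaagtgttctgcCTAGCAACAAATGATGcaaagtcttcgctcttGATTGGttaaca
H2-DMb2, chr17:34145111-34145169, plus strand: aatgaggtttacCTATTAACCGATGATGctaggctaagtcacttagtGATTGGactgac
Between X and Y box lay 19 bases in H2-DMb1 and H2-DMb2 and 16 in H2-Ob. In the 250 bases before each of 32851 RefSeq starts, 0.0700% held the X box pattern, 14.6% the Y box core, 1.55% the octamer and 9 of them both X and Y box, 4 of them in H2-Eb1, H2-DMb1, H2-DMb2 and H2-Ob. The 2 windows of H2-DMa, at 34122582 to 34122831 and 34125268 to 34125517, held no X box pattern. The Brd2 gene, on the minus strand, reaches 34122634, inside the first window. The rest of the H2-DMa span, which runs to 34139101, was not searched, so this says nothing about other starts of the gene. The X box pattern was written after these sequences had been read, and a match is a description of letters, not a mapped site.

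Each library held 14574823 to 15535778 counts, and a count of 3, taken as the floor, corresponds to 0.193 to 0.206 CPM (counts scaled to 1000000 per library). In the deposited table each Tet2 column was a mix of its own log2 value (weight 0.75) and that of the other replicate (weight 0.25), which was undone before any test. The WT column is a similar mix that could change its level by at most 2.65% for genes of 100 counts or more, and was used as deposited. Heart muscle genes were abundant in all 5 libraries, with 6 cardiomyocyte markers summing to 25846 to 38842 CPM. Tet2 vector replicate 1 stood apart in 5 markers of the atria, which summed to 981 CPM there and to at most 70.0 CPM in the other libraries. The labels do not say that replicates came from separate animals, so the p-values below reflect the spread among these libraries alone, which may be technical. Tet2 itself was at 9.43 and 17.9 CPM in Tet2 oridonin libraries, 19.2 and 7.76 CPM in Tet2 vector libraries and 15.6 CPM in WT, so its RNA did not separate the genotypes; whether the counted part of the gene lies in the deleted part is not known.

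Cd74, the invariant chain gene, lies on the plus strand of chromosome 18 at 60803848 to 60812652 (GRCm38). Its RNA was at 177 and 135 CPM in the Tet2 oridonin libraries, 73.0 and 116 CPM in the Tet2 vector libraries and 84.3 CPM in WT. Both oridonin libraries lay above both vector libraries and above WT, while WT lay between the vector libraries. The mean was 156 ± 29.5 CPM with oridonin and 94.3 ± 30.1 CPM with vector (SD, n = 2 each). The nearest libraries of the groups, at 135 and 116 CPM, were closer to each other than the replicates were within either group. In whole heart RNA, a different number of class II cells and a different amount of class II RNA per cell cannot be told apart.

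Among the classical chains, H2-Aa, the alpha chain of I-A, was at 82.0 and 61.8 CPM with oridonin, 36.8 and 54.5 CPM with vector and 41.0 CPM in WT. H2-Ab1, its beta chain partner, was at 84.9 and 51.7 CPM with oridonin, 27.7 and 50.8 CPM with vector and 34.5 CPM in WT. H2-Eb1, the beta chain of I-E, was at 89.7 and 59.3 CPM with oridonin, 32.9 and 58.7 CPM with vector and 45.1 CPM in WT. In all 3 chains the oridonin libraries were the highest, but replicate 2 of each Tet2 group differed by less than 1 CPM in H2-Ab1 and H2-Eb1. Tet2 oridonin replicate 1 was highest and Tet2 vector replicate 1 lowest in each of them and in Cd74.

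The peptide editor genes were lower and did not share 1 pattern. H2-DMa, the alpha chain of H2-DM, was at 7.18 and 4.80 CPM with oridonin, 3.60 and 3.98 CPM with vector and 3.06 CPM in WT, so the groups did not overlap. H2-DMb1, a beta chain of H2-DM, was at 5.74 and 3.84 CPM with oridonin, 3.99 and 6.13 CPM with vector and 3.55 CPM in WT, and the 2 Tet2 groups overlapped. Reads of H2-DMb1 may be shared with its close copy H2-DMb2, so its value is uncertain. H2-DMa shares 360 exon bases with Brd2 on the other strand, which had 1290 and 1300 counts with oridonin, 1416 and 1330 with vector and 1563 in WT, and the labels do not say whether strand was used in counting.

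Ciita, the coactivator gene on the plus strand of chromosome 16 at 10480059 to 10528418 (GRCm38), was at 2.05 and 3.16 CPM with oridonin, 1.87 and 1.11 CPM with vector and 2.83 CPM in WT. These values rest on 30, 46, 29, 17 and about 42 counts. Oridonin libraries were above vector libraries, and WT lay between the oridonin libraries. Ciita shares 329 exon bases with Dexi on the other strand, which had 388 and 322 counts with oridonin, 230 and 448 with vector and 370 in WT.

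**Figure D1:**
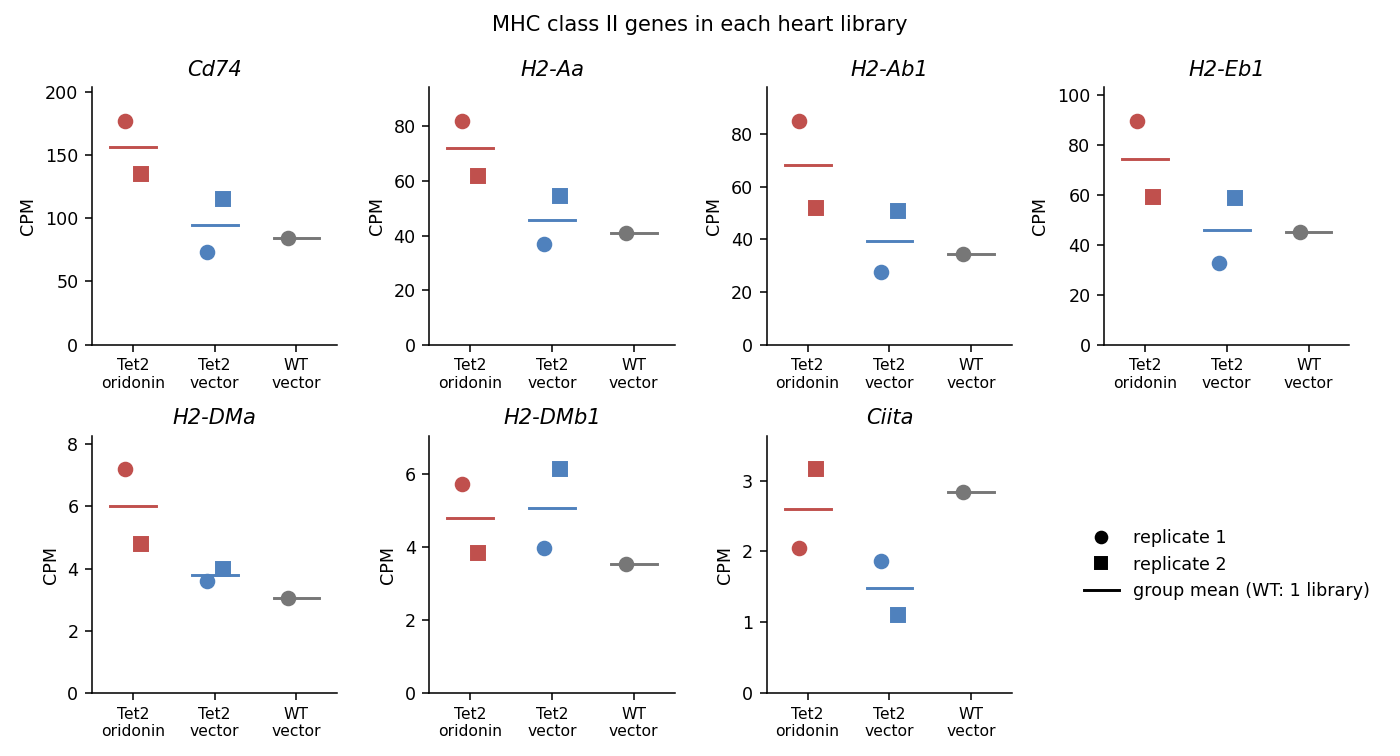
RNA level of each of the 7 genes in CPM for the Tet2 oridonin, Tet2 vector and WT libraries, 1 point per library, with a line at each group mean. For Cd74, points lie at 177 and 135 CPM with oridonin, 73.0 and 116 CPM with vector and 84.3 CPM in WT, and in H2-DMb1 the 2 Tet2 groups overlap.

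Compared per length, with CPM divided by the kilobases of all annotated exons, Cd74 was the most abundant member in every library, at 105 and 80.6 with oridonin, 43.5 and 68.9 with vector and 50.2 in WT. H2-Eb1 came next at 16.9 to 46.1, then H2-Ab1 at 10.8 to 33.1 and H2-Aa at 9.69 to 21.6 CPM per kilobase. H2-DMb1 at 2.11 to 3.65 and H2-DMa at 0.889 to 2.08 were lower, and Ciita was lowest at 0.116 to 0.331 CPM per kilobase. The order H2-Eb1, H2-Ab1, H2-Aa held in each library, although the ranges over libraries overlap.

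Cd74, H2-Aa, H2-Ab1 and H2-Eb1 kept the same order of libraries. Their summed level was 434 and 308 CPM with oridonin, 170 and 280 CPM with vector and 205 CPM in WT. Within a library the 4 genes lay within 0.18 to 0.31 of each other in log2 level relative to WT. Pearson correlations between pairs of the 4 were 0.973 to 0.999 over 5 libraries, a description of points that share their libraries and depth. Cd74 had 2.16 and 2.19 counts per H2-Aa count with oridonin, 1.98 and 2.12 with vector and 2.06 in WT. Per H2-Ab1 count it had 2.09 and 2.62 with oridonin, 2.63 and 2.28 with vector and 2.45 in WT, and per H2-Eb1 count 1.97 and 2.28 with oridonin, 2.22 and 1.97 with vector and 1.87 in WT. The ratio to H2-Aa thus varied least of the 3. As a share of its pair with H2-Ab1, Cd74 took 67.6% (95% Wilson interval 66.1 to 69.1) and 72.4% (70.7 to 74.0) in the oridonin libraries, so that ratio differed between these replicates beyond counting error.

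H2-DMa correlated with the mean profile of all 7 genes at r = 0.94 and H2-DMb1 at r = 0.60, where the profile includes the gene itself. For Ciita r was 0.02 with that profile and -0.08 to 0.02 with each of Cd74, H2-Aa, H2-Ab1 and H2-Eb1. Its level over the 5 libraries thus did not follow that of these 4 genes, which it is known to control. H2-DMa had 1.25 counts per H2-DMb1 count in both oridonin libraries, against 0.903 and 0.649 with vector and 0.868 in WT. As a share of the pair H2-DMa took 55.6% (95% Wilson interval 48.4 to 62.5) and 55.6% (46.8 to 63.9) with oridonin. With vector it took 47.5% (38.7 to 56.4) and 39.4% (32.0 to 47.2), and 46.5% (37.0 to 56.2) in WT. The intervals cover counting error only, and the ratio was chosen after its values were seen.

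**Figure D2:**
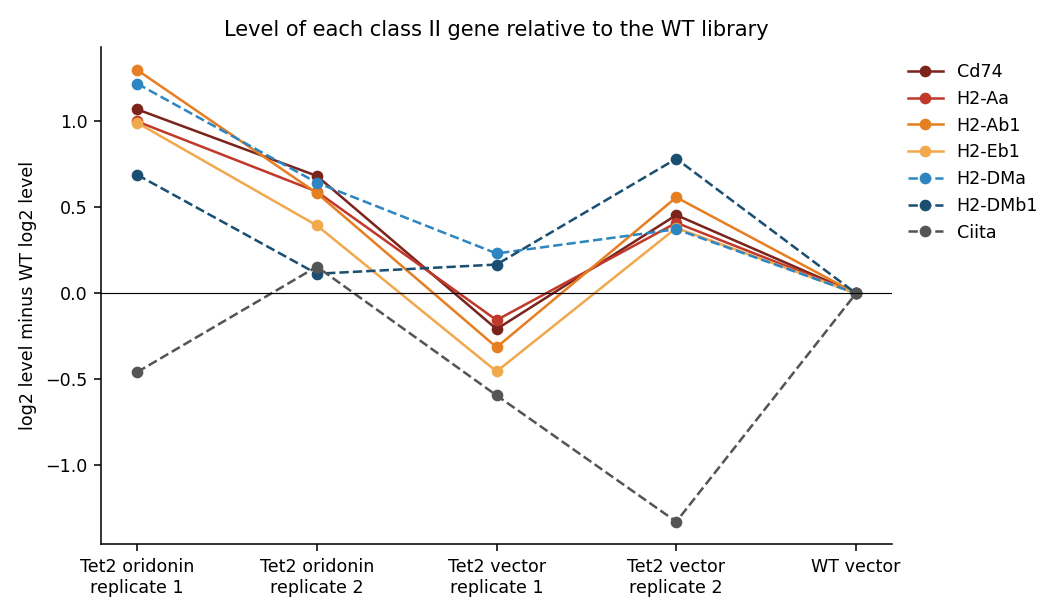
Log2 level of each gene relative to the WT library across the 5 libraries, 1 line per gene. Cd74, H2-Aa, H2-Ab1 and H2-Eb1 run together within 0.18 to 0.31 in each library, whereas H2-DMb1 and Ciita leave them.

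Oridonin against vector, both in groups labelled Tet2+/-, asks how the drug changes these genes. In 6 of the 7 genes both oridonin libraries were above both vector libraries, where 8.33% of the 12734 genes tested were so placed and 17.8% were placed the other way. The log2 fold change was 0.75 (SE 0.27) for Cd74, 0.67 (SE 0.26) for H2-Aa, 0.82 (SE 0.37) for H2-Ab1 and 0.73 (SE 0.34) for H2-Eb1. It was 0.63 (SE 0.33) for H2-DMa, -0.07 (SE 0.37) for H2-DMb1 and 0.81 (SE 0.46) for Ciita. The median of the 7 was 0.73, against -0.05 over all genes tested. A positive value was found in 6 of the 7 and in 40.2% of all genes, and 1.43% of all genes had a larger one than Cd74.

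By limma with Benjamini-Hochberg adjustment over all genes none of the 7 passed an adjusted p of 0.05, and each had an adjusted p of 1.00. In that fit 0 of 12734 genes (0%) passed, and the smallest adjusted p was 0.242. Before adjustment 2 of the 7 passed 0.05 upwards and 0 downwards, against 0.668% of all genes upwards and 1.93% downwards. These were Cd74 and H2-Aa, with limma's unadjusted p-values of 0.0323 and 0.0434. Limma's voom on the recovered counts also called 0 genes.

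Without Tet2 vector replicate 1, the library with atrial RNA, the log2 fold changes were smaller for the 4 genes that run together: 0.42 for Cd74, 0.39 for H2-Aa, 0.38 for H2-Ab1 and 0.31 for H2-Eb1. H2-DMa stood at 0.56, H2-DMb1 at -0.38 and Ciita at 1.18 in the same fit. Adjusted p-values by limma were then 0.719 to 0.844. Without Tet2 oridonin replicate 1 the values were 0.46 for H2-Ab1, 0.43 for H2-Eb1, 0.34 for H2-DMa and -0.36 for H2-DMb1. Without Tet2 vector replicate 2 they were 1.25 for H2-Ab1, 1.148 for H2-Eb1, 0.44 for Ciita and 0.23 for H2-DMb1, and without Tet2 oridonin replicate 2 0.50 for Ciita and 0.21 for H2-DMb1. The other values moved by less than 1.5 times under these omissions, and Cd74 ranged over 0.42 to 1.08.

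**Figure D3:**
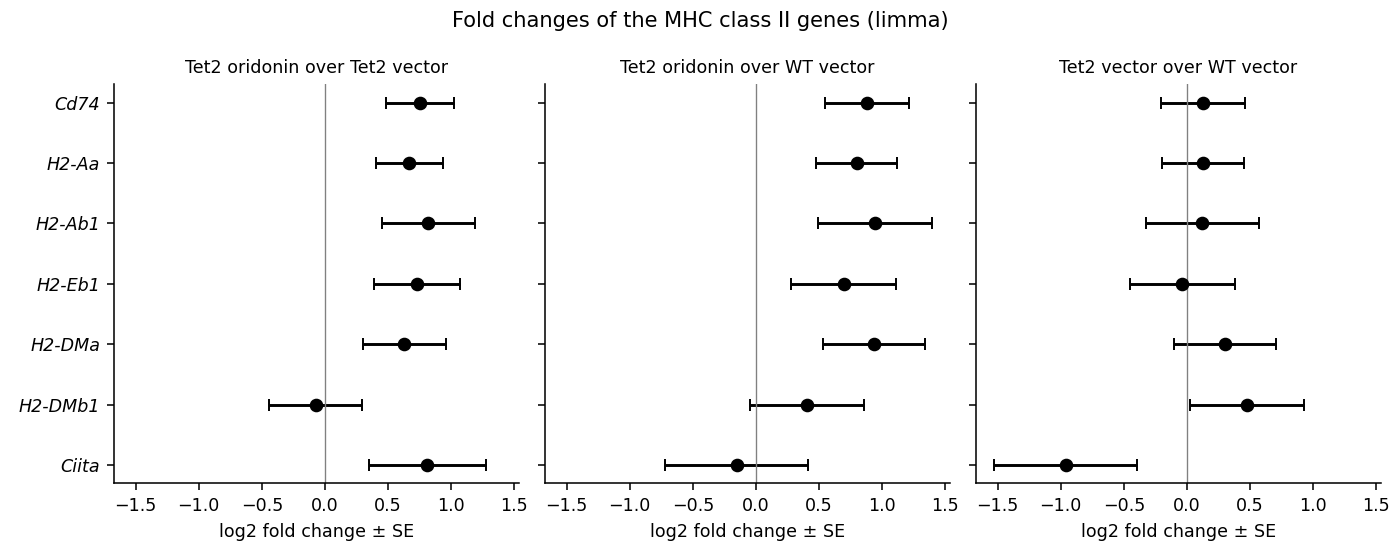
Log2 fold change of each gene with its standard error in the 3 comparisons. For oridonin over vector the values run from -0.07 for H2-DMb1 to 0.82 for H2-Ab1, and none passes the adjusted threshold; the sign of H2-DMb1 turns to 0.069 with quantile normalization.

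Tet2 vector against WT addresses the labelled Tet2+/- genotype without the drug, with 1 WT library whose spread is taken from the Tet2 groups. The log2 fold change was 0.12 (SE 0.33) for Cd74, 0.13 (SE 0.32) for H2-Aa, 0.12 (SE 0.45) for H2-Ab1 and -0.04 (SE 0.42) for H2-Eb1. For these 4 genes WT lay between the 2 vector libraries, so the vector libraries stood on no single side of WT. It was 0.30 (SE 0.41) for H2-DMa, 0.48 (SE 0.45) for H2-DMb1 and -0.96 (SE 0.57) for Ciita, where both vector libraries lay on the same side of WT. Among all genes 35.3% had both vector libraries above WT and 32.3% below it. Adjusted p-values by limma were 0.624 to 0.982 for the 7 genes, 0 of 12734 genes (0%) passed, and 0 of the 7 had an unadjusted p under 0.05, against 5.06% of all genes higher and 4.53% lower. The median of the 7 was 0.12, with 5 above 0, where 50.4% of all genes were above 0 and 40.1% had a larger value than Cd74. The H2-Eb1 value changes sign under scaling, to 0.037 with quantile normalization and 0.054 without mitochondrial genes.

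Tet2 oridonin against WT shares its oridonin libraries with the first comparison and its WT library with the second. The log2 fold change was 0.88 (SE 0.33) for Cd74, 0.80 (SE 0.32) for H2-Aa, 0.94 (SE 0.45) for H2-Ab1, 0.69 (SE 0.42) for H2-Eb1 and 0.93 (SE 0.41) for H2-DMa. For H2-DMb1 it was 0.40 (SE 0.45) and for Ciita -0.15 (SE 0.57). Both oridonin libraries were above WT in the 6 genes other than Ciita, as in 31.8% of all genes, with 41.8% below. The median of the 7 was 0.80, against -0.06 over all genes. A positive value was found in 6 of the 7 and in 43.8% of all genes, and 4.44% of all genes had a larger one than Cd74. The 4 leukocyte markers summed to 48.8 and 47.7 CPM with oridonin, 55.0 and 44.3 CPM with vector and 30.5 CPM in WT, none of them at 0 in any library. Their median log2 fold change for oridonin over WT was 0.82, with 4 of 4 above 0, and it was 0.88 for vector over WT and -0.06 for oridonin over vector. For the 14 macrophage markers, also at 0 in no library, the median for oridonin over WT was 0.47, with 11 above 0 and 3 below. The median for vector over WT was 0.63, also with 11 above 0 and 3 below. Ccr2, a receptor of recruited monocytes, had limma's smallest unadjusted p of the 14 in both comparisons. It stood at 2.06 (SE 0.39) for oridonin over WT and at 1.49 (SE 0.39) for vector over WT. The part of leukocyte number in the class II levels was not tested. Adjusted p-values by limma were 0.791 to 0.970, and 0 of 12734 genes (0%) passed. Before adjustment 2 of the 7 passed 0.05 upwards and 0 downwards, against 2.69% of all genes upwards and 3.53% downwards, and these were again Cd74 and H2-Aa, with limma's unadjusted p-values of 0.0387 and 0.0478.

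The other class II chains were at the limit of detection. H2-Ob, a chain of the H2-DO inhibitor of H2-DM, had 13 and 8 counts with oridonin, 4 and 4 with vector and 4 in WT. H2-DMb2 had 2 and 7 counts with oridonin, 7 and 2 with vector and 0 in WT. Neither passed the filter, and H2-Oa, H2-Eb2 and H2-Ea were not analysed here.

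Ciita acts through the RFX complex, NF-Y and CREB. Of these 7 genes 0 passed in any comparison by limma, with a median log2 fold change of -0.15 for oridonin over vector, where 3 were above 0. Rfx5, the DNA-binding RFX subunit, was at 6.84 and 5.63 CPM with oridonin, 4.83 and 4.24 CPM with vector and 4.51 CPM in WT, a log2 fold change of 0.45 (SE 0.29) over vector. Nfya, the NF-Y subunit that reads the Y box, ranged over 16.04 to 23.4 CPM in the 5 libraries, was highest in WT and overlapped between the Tet2 groups.

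Of the route from interferon-gamma to Ciita, 7 of 9 genes were tested and 0 passed by limma. Ifngr2, a receptor chain, was at 149 and 159 CPM with oridonin, 166 and 158 CPM with vector and 108 CPM in WT. Its log2 fold change was -0.07 (SE 0.16) for oridonin over vector, 0.58 (SE 0.20) for vector over WT and 0.51 (SE 0.20) for oridonin over WT, with adjusted p-values by limma of 1.00, 0.475 and 0.791.

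Proteases and other genes that prepare antigen for class II did not share the order of the chains. Of 8 tested, 1 had a positive log2 fold change for oridonin over vector, the median was -0.12 and 0 passed by limma. Ctss, the protease that trims the invariant chain, was at 17.4 and 18.8 CPM with oridonin, 24.2 and 15.98 CPM with vector and 13.1 CPM in WT. Ctsl, a related protease, was at 157 and 149 CPM with oridonin, 151 and 212 CPM with vector and 339 CPM in WT. Its log2 fold change was -0.92 (SE 0.25) for vector over WT and -1.15 (SE 0.25) for oridonin over WT, with adjusted p-values of 0.428 and 0.610 by limma. Ifi30, a thiol reductase of the endosome, was at 7.93 and 4.05 CPM with oridonin, 7.02 and 8.80 CPM with vector and 4.05 CPM in WT. Lgmn, an asparaginyl endopeptidase, was at 82.0 and 77.3 CPM with oridonin, 99.8 and 72.7 CPM with vector and 66.9 CPM in WT. Ctsb ranged over 516 to 588 CPM and Ctsd over 517 to 770 CPM in the 5 libraries. The ubiquitin ligases that turn over class II chains, Marchf1 at 1.43 to 3.80 CPM and Marchf8 at 44.1 to 60.5 CPM, overlapped between the Tet2 groups.

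Of 5 tested co-stimulation genes 0 passed by limma. Cd274, which encodes the inhibitory ligand PD-L1, was at 15.6 and 17.02 CPM with oridonin, 21.5 and 35.4 CPM with vector and 12.7 CPM in WT. Its log2 fold change was -0.76 (SE 0.29) for oridonin over vector, opposite in sign to Cd74, and 1.12 (SE 0.35) for vector over WT. Cd40 was at 2.73 and 1.44 CPM with oridonin, 2.12 and 2.28 CPM with vector and 1.18 CPM in WT.

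The 252 kilobases of chromosome 17 from H2-Oa to H2-Ea-ps also hold genes of class I antigen processing, and this stretch was chosen after the values were seen. Psmb9, an immunoproteasome subunit, was at 14.1 and 10.2 CPM with oridonin, 12.4 and 24.7 CPM with vector and 5.84 CPM in WT. Tap1, a peptide transporter, was at 23.0 and 17.5 CPM with oridonin, 21.5 and 33.8 CPM with vector and 9.96 CPM in WT. Its log2 fold change was -0.43 (SE 0.29) for oridonin over vector and 1.44 (SE 0.36) for vector over WT, with an adjusted p of 0.390 by limma in the second. For H2-Aa in the same region these were 0.67 and 0.13. Psmb9 and Tap1 overlap, and the labels do not say whether strand was used in counting.

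**Figure D4:**
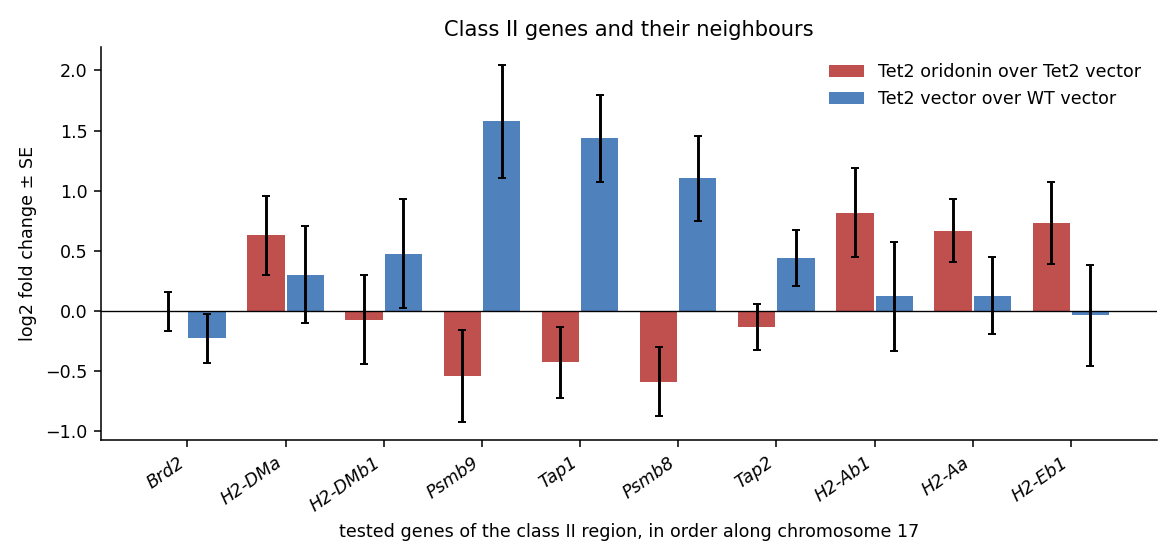
Log2 fold change of genes in the class II region, in order along the chromosome, for oridonin over vector and vector over WT, with bars of 1 standard error from limma. H2-Aa, H2-Ab1 and H2-Eb1 stand at 0.67, 0.82 and 0.73 for oridonin over vector, whereas Tap1 and Psmb9 stand at -0.43 and -0.54.

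Marker lists of cells that can carry class II differed among themselves, and the macrophage and dendritic cell sums overlapped between the Tet2 groups. The 14 macrophage markers, all with at least 3 counts in every library, summed to 308 and 301 CPM with oridonin, 448 and 282 CPM with vector and 260 CPM in WT. Tet2 vector replicate 1 was highest in that sum and lowest in Cd74. For oridonin over vector the median log2 fold change of the 14 was -0.14, with 5 above 0 and 9 below. By single genes, 2 of the 14 were higher in both oridonin than in both vector libraries (Ccr2 and Cx3cr1). Another 2, C1qa and C1qc, were lower. Of the 10 dendritic cell markers 4 were higher (Flt3, Zbtb46, Siglech and Batf3) and 0 lower. Among all genes tested 8.33% were so placed upwards and 17.8% downwards. Flt3, Siglech and Batf3 had 0 to 6 counts per Tet2 library and did not pass the filter. Siglech had 2 counts in each Tet2 library, so its order rests on the library totals alone. The 10 dendritic cell markers summed to 24.7 and 29.0 CPM with oridonin, 28.6 and 22.6 CPM with vector and 25.5 CPM in WT. Zbtb46 made up most of each sum, at 16.1 and 18.7 CPM with oridonin, 15.8 and 14.6 CPM with vector and 16.2 CPM in WT. Cd74 had 4.57 and 4.08 CPM per CPM of the macrophage receptor gene Csf1r with oridonin, 1.29 and 3.15 with vector and 1.81 in WT. Per CPM of the leukocyte gene Ptprc it had 25.9 and 12.7 with oridonin, 8.16 and 13.7 with vector and 21.3 in WT, and per CPM of the endothelial gene Pecam1 0.840 and 0.597 with oridonin, 0.330 and 0.627 with vector and 0.329 in WT. Per CPM of the macrophage gene Adgre1, Cd74 had 13.1 and 11.5 with oridonin, 3.61 and 9.53 with vector and 7.79 in WT. The ratios to Csf1r and Adgre1 separated the Tet2 groups, as Cd74 alone did, whereas the ratios to Ptprc and Pecam1 overlapped. Csf1r and Adgre1 were highest, at 56.6 and 20.2 CPM, in Tet2 vector replicate 1, where Cd74 was lowest. The amount of class II RNA per macrophage was not tested.

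The 8 B cell markers did differ between groups in the same direction as Cd74, with 61 and 56 counts in all with oridonin, 42 and 40 with vector and 18 in WT. Ms4a1, Pax5 and Fcmr were at 0 in Tet2 vector replicate 1, Ms4a1 at 0 in Tet2 vector replicate 2 and Cd79a, Pax5 and Fcmr at 0 in WT. The 8 endothelial markers summed to 1740 and 1814 CPM with oridonin, 1520 and 1664 CPM with vector and 1685 CPM in WT. The 4 red cell markers in the table summed to 387 and 319 CPM with oridonin, 247 and 147 CPM with vector and 366 CPM in WT. The 5 fibroblast markers summed to 610 and 636 CPM with oridonin, 1045 and 1154 CPM with vector and 775 CPM in WT. The part of these cell types in the class II levels was not tested.

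**Figure D5:**
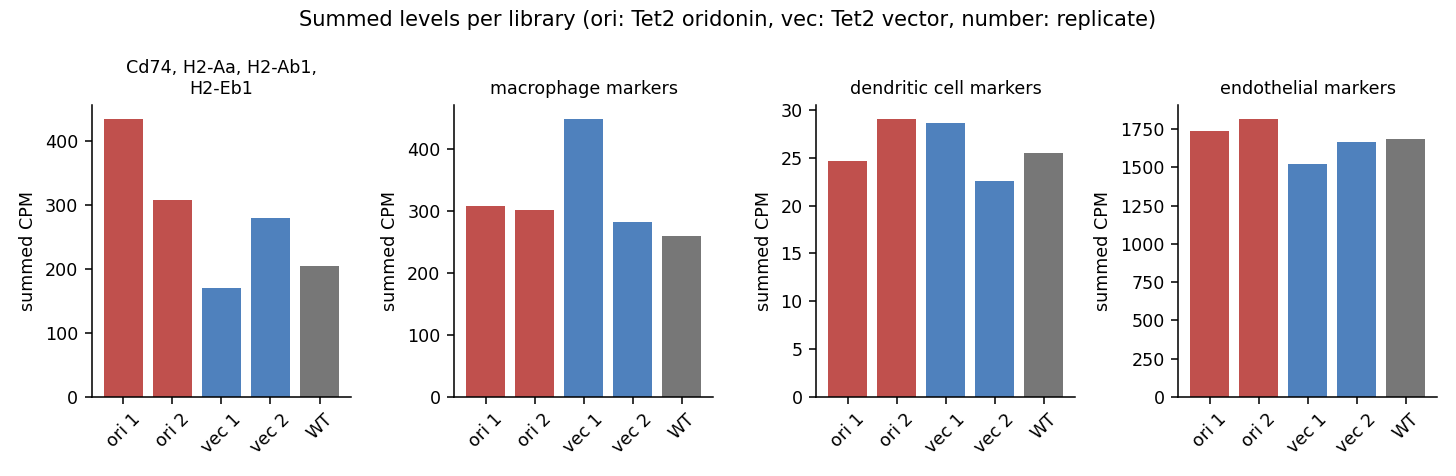
Bars give the summed CPM of macrophage, dendritic cell and endothelial markers beside the summed CPM of Cd74, H2-Aa, H2-Ab1 and H2-Eb1 in the 5 libraries. The class II sum is 434 and 308 CPM with oridonin, 170 and 280 CPM with vector and 205 CPM in WT, while the macrophage sum is highest, at 448 CPM, in Tet2 vector replicate 1. Most of each dendritic cell sum is Zbtb46.

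Outside the lists, the gene whose log2 level most resembled the mean profile of all 7 genes over 5 libraries was Cd300lg, with r = 0.996. Cd300lg encodes a receptor-like glycoprotein of capillary endothelium. It was at 166 and 136 CPM with oridonin, 95.7 and 127 CPM with vector and 108 CPM in WT. Pde10a, Hjv, St6galnac2, Fbxw5, Cds1, Higd1a, Fgfbp3, Jagn1 and Pigs followed at r = 0.977 to 0.988. Of 12700 genes compared, 0.236% had r of 0.95 or more, and with 5 libraries this is a description of likeness alone.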

How the data were processed

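Poly-A RNA of heart was made into 5 libraries by a NEBNext Ultra protocol (per the labels' protocols). The submitters' processing notes name mm10, while aligner, counter and strand setting were not given in the sources used here. What the authors deposited is a single log2 table, whose values, judged from the numbers themselves, are log2 of the count plus 0.5 over the library total, as CPM (counts scaled to 1000000). Each deposited Tet2 log2 column weights its own replicate by 0.75 and the other by 0.25. With this undone, 99.92% to 99.94% of genes gave whole counts within 0.01, against 9.06% to 10.4% as deposited. The WT column, in which 98.8% of 16106 genes fit a mixed pair of whole counts, was used as deposited and is 1 sample. No source used here says how the mixing came about.

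The 12734 genes that reached 1 CPM in 2 or more libraries were fitted with limma 3.58.1 (R 4.3.3), trend and robust empirical Bayes, on the unmixed log2 values. Group was the only term, all 5 libraries entered 1 fit with 2 residual degrees of freedom, and the single WT library takes its spread from the Tet2 groups. P-values are two-sided and adjusted by Benjamini-Hochberg over all genes at an FDR of 0.05. The unmixing and the fit were also run on simulated counts, with the same spread for every gene and no library set apart. That run does not test the fit for the spread of these libraries. Totals were 14626806 and 14574823 counts for Tet2 oridonin, 15535778 and 15334618 for Tet2 vector and 15002794 for WT. Python 3.11.15 and GENCODE M21 served for the rest, and promoter letters are from RefSeq (GRCm38.p6).

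The members, gene lists and marker lists were chosen with earlier results of these data known. Named are all members, every other class II chain and processing gene analysed, the gene with the smallest p in a comparison for the transcription complex, co-stimulation and interferon-gamma lists, and the 10 genes most like the members. Marker lists are given by sums and counts. Tet2, Brd2, Dexi, Psmb9, Tap1, Csf1r, Adgre1, Ptprc, Pecam1, Ccr2, Cx3cr1, C1qa, C1qc, Bank1 and B cell markers at 0 were named outside that rule. So were the dendritic cell markers Flt3, Zbtb46, Siglech and Batf3. Some results for single genes under this rule are not reported here. Alternatives were the deposited values, other scalings, filters and pseudocounts, voom, the compared groups alone, a replicate block and leaving out each replicate.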

Additional observations from a re-analysis of the deposited data

How the results depend on the processing

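Of 336 recomputed fold changes of the 7 genes, 318 kept their direction and their side of the threshold, 14 changed sign and 4 newly passed the threshold. The median over the 7 genes stayed within the spread between replicates in all 48 cases, at -0.21 to 0.41 for vector over WT, 0.39 to 0.95 for oridonin over vector and 0.54 to 1.00 for oridonin over WT. Genes called were 0 in each comparison by limma and by voom, with 644 higher and 577 lower at an unadjusted p under 0.05 for vector over WT, 85 and 246 for oridonin over vector and 342 and 449 for oridonin over WT. On the deposited values, whose replicates are mixed into each other and so lie closer together, 2312 genes were called for vector over WT, 76 for oridonin over vector and 996 for oridonin over WT. There H2-Aa (0.80, adjusted p = 0.042), Cd74 (0.88, adjusted p = 0.0381) and H2-DMa (0.93, adjusted p = 0.0471) passed in limma for oridonin over WT. With the compared groups alone 103 genes were called for vector over WT and 1 for oridonin over WT.

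Deviations of same-numbered Tet2 libraries from their group means correlated at -0.30 over 12734 genes. With 2 libraries a group, this correlation cannot decide whether replicate numbers pair the samples. With a replicate block 10 genes were called for vector over WT, 9 for oridonin over vector and 6 for oridonin over WT. With the crossed replicate block, added after the data were seen, 432, 44 and 184 genes were called in that order of comparisons. Under the crossed block H2-Ab1 for oridonin over vector had an adjusted p of 0.0458 in limma, and the log2 fold change over WT was -0.12 for H2-Aa, -0.27 for H2-Ab1 and -0.14 for Cd74 with vector and 0.19 for Ciita with oridonin.

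Leaving out 1 library gave 2 to 107 genes called for vector over WT, 3 to 32 for oridonin over vector and 0 to 24 for oridonin over WT. For vector over WT it gave 3 without Tet2 vector replicate 1, 2 without replicate 2, and 87 and 107 without Tet2 oridonin replicates 1 and 2. For oridonin over vector the same omissions gave 5, 3, 13 and 32, and for oridonin over WT 1, 0, 10 and 24. Fold changes over WT with vector then ran from -0.45 to 0.38 for H2-Eb1, -0.16 to 0.41 for H2-Aa, -0.31 to 0.56 for H2-Ab1 and -0.21 to 0.46 for Cd74. For oridonin over vector they ran from -0.38 to 0.23 for H2-DMb1, and for oridonin over WT from -0.46 to 0.16 for Ciita. Quantile normalization gave 0.037 for H2-Eb1 (vector over WT) and 0.069 for H2-DMb1 (oridonin over vector), and scaling without mitochondrial genes, added after the data were seen, gave 0.054 for H2-Eb1 and moved the median of all genes for oridonin over WT from -0.06 to 0.05. Causes were not tested beyond the closer replicates of the mixed values. With 2 libraries a group and 1 WT library, and 17 to 105 counts behind H2-DMa, H2-DMb1 and Ciita, the fold changes reported carry standard errors of 0.26 to 0.57.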
